A study of Mus musculus with 3 samples.

Results

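The perineurial cells of the mouse sciatic nerve are described here in the bridge that formed across an injury, at day 7, and in intact nerve. They are the cells that the authors' annotation calls MES_PERI, and they number 357 of the 7234 annotated cells found in the deposited matrices, 241 in the day 7 bridge library and 116 in the intact nerve library. The mice carried Pdgfrb-cre/ERT2, a Cre recombinase that tamoxifen activates in cells using the Pdgfrb promoter, and the R26-TomatoLSL reporter, so that sorted TdTomato-positive cells descended from cells with an active Pdgfrb promoter. Droplet single-cell RNA sequencing was done on 3 such libraries, from intact nerve, the day 7 bridge and the day 21 bridge, and the title of the series links vessel growth in the wound to barrier-forming mesenchyme of regrowing nerve. All groups shared both alleles, nerves were pooled before dissociation, and myelin was taken out with beads in the intact sample and not in the bridges, so that this step and the group cannot be told apart. Age and sex are not given in the sources used here. Each group was 1 library, so no difference below was tested and every interval covers counting error only.

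The perineurium is the sheath of flat, epithelium-like mesenchymal cells around each nerve fascicle. Its cells are sealed by tight junctions, coated by basement membrane and rich in caveolae, and they carry the glucose transporter GLUT1, so that with the vessels inside the fascicle they form the blood-nerve barrier. In mice, desert hedgehog from Schwann cells is needed for the sheath to form, and a cut nerve has to rebuild it around the regrowing axons.

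Values are summed UMIs (unique molecular identifiers, which count captured RNA molecules) of the class in a library, scaled to 1000000 UMIs of that class and written CPM, with an exact Poisson 95% interval. The class held 3751538 UMIs at day 7 and 725278 in intact nerve, and cells at day 7 had a median of 15443 UMIs against 5291 in intact nerve. No barcode was shared between the cells of the day 7 and intact class. The median share of mitochondrial UMIs was 1.16% at day 7 and 4.51% in intact nerve. The class made up 13.5% (12 to 15.2) of annotated day 7 cells and 8.64% (7.19 to 10.3) of annotated intact cells, with exact binomial 95% intervals, shares that the sort and the bead step can set. A gene was compared where its mean over both libraries reached 10 CPM, and it is said to rise or fall where it differed more than 2-fold.

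The cells carried the markers of their name in both libraries, and they carried less of every one of them at day 7. All 10 of 10 perineurial markers were highest in the MES_PERI class, at day 7 among 6 classes and in intact nerve among the 3 classes with at least 50 cells. This describes the authors' classes, which were made from the same cells. The lead over the next class was 1.58- to 7.92-fold at day 7 against 12.8- to 853-fold in intact nerve. All 10 of 10 also fell between the libraries, beside 16.6% of all 8245 genes compared, with a median log2 ratio of -3.05 where all genes had -0.13. Their summed level was 854 CPM at day 7 and 6628 CPM in intact nerve. The markers were chosen with earlier results of these data known and were high in intact cells of the class. All genes compared are therefore not a matched background for their fall.

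Itgb4 (ENSMUSG00000020758.15; chromosome 11, 115974709 to 116008412 of mm10), which encodes the integrin beta-4 chain of hemidesmosomes, stood at 102 CPM (91.9 to 113) at day 7 and 1513 CPM (1424 to 1605) in intact nerve, 14.9-fold lower (13.2 to 16.7). Lypd2 (ENSMUSG00000022595.7; chromosome 15, 74732247 to 74734329), a gene of the Ly6 family, was at 94.1 CPM (84.5 to 104) and 1372 CPM (1288 to 1459.8) in the same order, 14.6-fold lower (12.9 to 16.5). The largest folds among the markers were thus those of 2 genes with over 1000 CPM in intact nerve. Slc2a1 (ENSMUSG00000028645.11; chromosome 4, 119108711 to 119137983), which encodes GLUT1, was at 109 CPM (98.7 to 120.1) in the bridge and 818 CPM (753 to 886) in intact nerve, 7.5-fold lower (6.6 to 8.53). Ntng1, encoding the membrane-anchored netrin-G1, was 12.4-fold lower (10.7 to 14.4), and Perp, encoding a membrane protein of desmosomes, was 12-fold lower (9.21 to 15.9). Casq2, for the calcium store protein calsequestrin-2, was 9.18-fold lower (6.81 to 12.5), Msln, for the mesothelial surface protein mesothelin, 7.33-fold lower (6.1 to 8.83), and Moxd1, for a monooxygenase, 4.57-fold lower (3.31 to 6.3). The smallest falls were those of the keratin gene Krt19, at 83.7 CPM at day 7 against 294 in intact nerve, and of Cldn1, for claudin-1 of tight junctions. Cldn1 was at 281 CPM (265 to 299) at day 7 and 878 CPM (811 to 949) in intact nerve, 3.12-fold lower (2.82 to 3.45), and the MES_DIFF class of the bridge held it at 178 CPM.

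**Figure D1:**
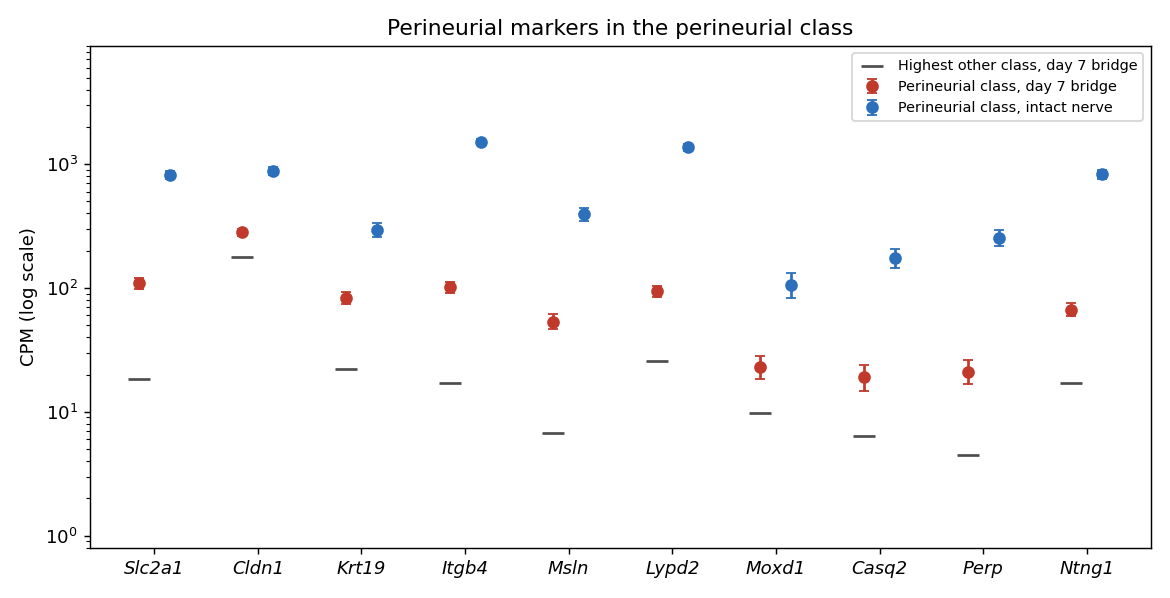
Level of the 10 perineurial markers in the perineurial class (CPM, log scale; bars are exact Poisson 95% intervals) in the day 7 bridge (red) and intact nerve (blue), with the highest other class of the day 7 library as a dash. Each red point lies below its blue point and above its dash, with Cldn1 nearest to its dash at 281 CPM against 178 CPM.

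The promoters of Areg, Slc2a1 and Cldn1 are shown because Areg had no UMI in intact perineurial cells and the other 2 encode the glucose transporter and a claudin of the barrier, and were lower at day 7. The sequences are RefSeq's, of build GRCm38.p6, from 250 bases before to 50 bases after the annotated start, on the gene's own strand. Areg lies on the plus strand at chr5:91139349-91139648, Slc2a1 on the plus strand at chr4:119108495-119108794 and Cldn1 on the minus strand at chr16:26371790-26372089. Capitals mark matches, read on either strand, to the cAMP response element TGACGTCA, to the TATA box with the letters TATAAA, and to the GC box with the letters GGGCGG. On the strand as printed, a GC box of the other strand reads CCGCCC.
Areg: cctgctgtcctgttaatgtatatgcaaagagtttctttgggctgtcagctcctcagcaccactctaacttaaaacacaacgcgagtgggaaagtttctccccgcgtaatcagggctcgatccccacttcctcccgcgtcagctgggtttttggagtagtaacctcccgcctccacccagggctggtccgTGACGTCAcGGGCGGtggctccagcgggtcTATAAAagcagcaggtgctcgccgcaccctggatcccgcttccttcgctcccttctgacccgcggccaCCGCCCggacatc
Slc2a1: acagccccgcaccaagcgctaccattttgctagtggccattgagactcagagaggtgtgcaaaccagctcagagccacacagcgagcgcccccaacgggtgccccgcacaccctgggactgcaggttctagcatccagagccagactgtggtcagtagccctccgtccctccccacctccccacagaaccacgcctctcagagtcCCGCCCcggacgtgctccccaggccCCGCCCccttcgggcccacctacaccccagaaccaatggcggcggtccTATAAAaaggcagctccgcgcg
Cldn1: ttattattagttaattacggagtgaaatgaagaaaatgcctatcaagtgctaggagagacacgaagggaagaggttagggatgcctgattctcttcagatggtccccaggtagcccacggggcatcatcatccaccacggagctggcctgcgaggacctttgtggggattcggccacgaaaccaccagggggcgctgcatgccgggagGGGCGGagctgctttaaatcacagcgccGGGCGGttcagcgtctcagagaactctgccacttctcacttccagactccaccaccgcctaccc
The Areg window held TGACGTCA at 61 bases and TATAAA at 31 bases before the start, with GGGCGG on each strand. Slc2a1 and Cldn1 held GGGCGG 2 times each, and Slc2a1 also held TATAAA after its start. Among 32851 promoters of this length, 1.79% held TGACGTCA, 13.6% TATAAA and 35.7% GGGCGG on either strand. TGACTCA, the AP-1 site, was in none of the 3 windows and in 5.2% of all promoters. A match describes letters and is not a site shown to be used.

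Cell by cell, the day 7 class was lower across most of its cells and not through a few of them. After each cell was thinned to 2000 UMIs, which left out no cell, the 10 markers together gave a median of 1 UMI per cell at day 7 (quartiles 0 and 2) and 13 in intact nerve (quartiles 8 and 18). Of the 241 day 7 cells, 12 (4.98%) reached the lower quartile of the intact cells and 4 (1.66%) reached their median. No marker UMI was left in 36.9% of day 7 cells and 6.90% of intact cells, shares that were 4.98% and 4.31% before thinning. In classes that should lack these genes, 72.2% of endoneurial and 93.2% of epineurial day 7 cells had none after thinning. Before thinning the shares were 27.5% in endoneurial cells, at a median depth of 15143 UMIs, and 65.4% in epineurial cells, at 19883.5 UMIs. Leaving out cells with fewer than 2 markers kept 190 day 7 and 108 intact cells, and the list median was then -2.81. That filter used the same 10 markers whose level is compared, and most day 7 endoneurial cells also held a marker UMI before thinning. It therefore cannot show whether cells of another class were part of the fall, which was not tested.

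**Figure D2:**
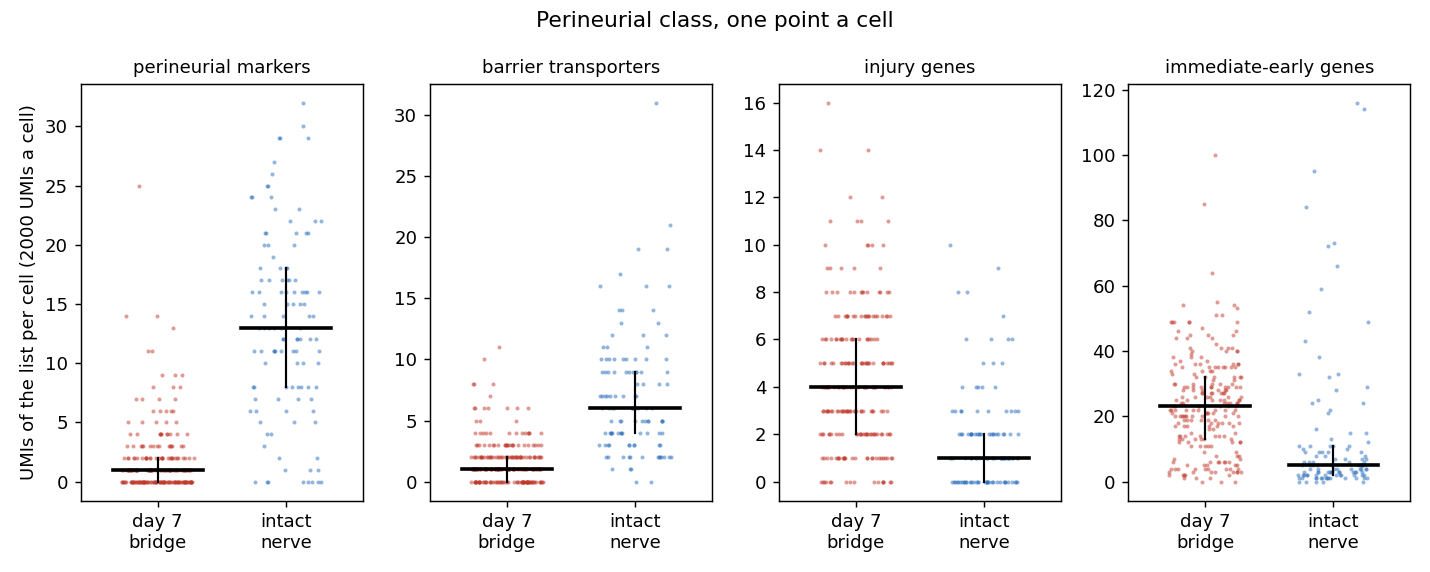
UMIs of 4 gene lists in each perineurial cell after thinning to 2000 UMIs, day 7 bridge (red, 241 cells) left of intact nerve (blue, 116 cells), with the median as a bar and the quartiles as a line. Perineurial markers had a median of 1 UMI at day 7 against 13, and immediate-early genes a median of 23 UMIs against 5.

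Across all genes the day 7 class differed broadly from the intact class. Of 8245 genes compared, 823 rose (9.98%) and 1369 fell (16.6%), and 100 rose and 154 fell by more than 8-fold. The 9.98% and 16.6% are the background for the counts of every list below, and counts near them are not read as results. Scaling by the median of ratios in place of the total added 0.13 to every log2 ratio and gave 1002 that rose and 1156 that fell. Genes described below as lower with a ratio just past 2-fold, namely Gli1, Smad7, Serping1, Bmp1, Notch2 and Tpi1, were within 2-fold under it. The same genes gave 8.53% higher and 7.39% lower in the endoneurial class, and 5.59% higher and 6.85% lower in the epineurial class. These shares were set side by side and the differences between classes were not tested.

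**Figure D3:**
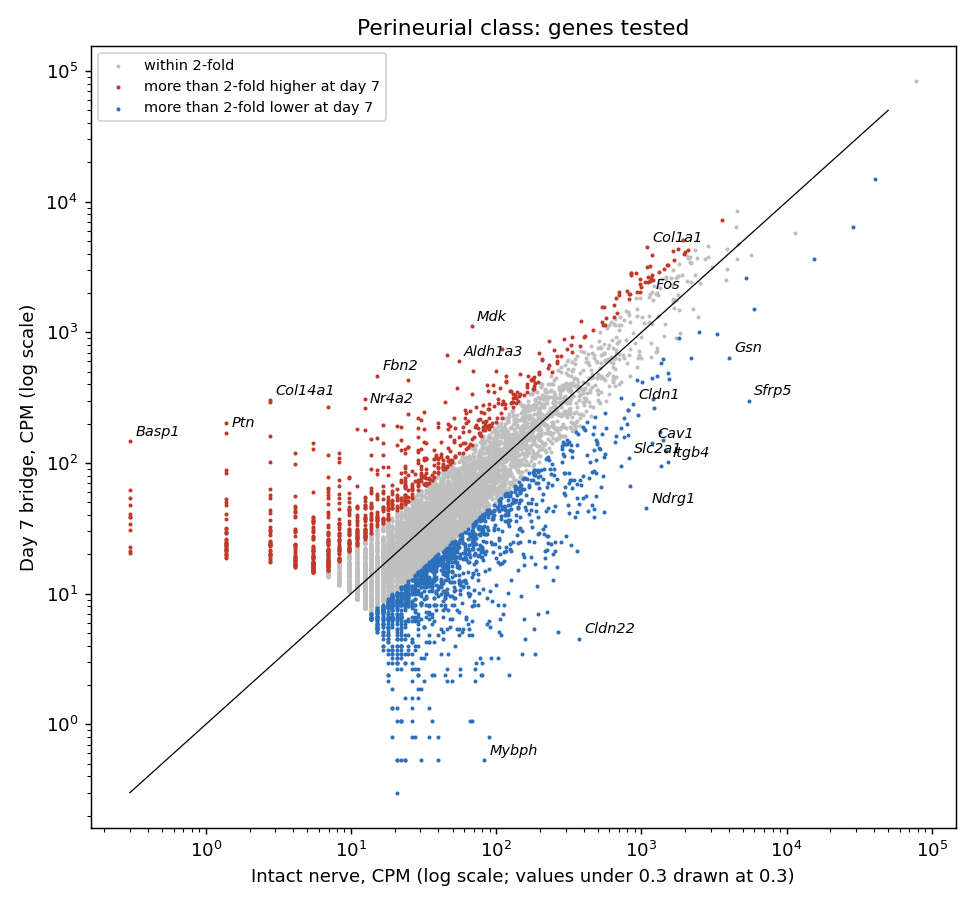
Level of each gene compared in the perineurial class, intact nerve on the x axis and the day 7 bridge on the y axis (CPM, both log scales; values under 0.3 are drawn at 0.3), with the line of equal level. The 823 genes more than 2-fold higher at day 7 are red and the 1369 more than 2-fold lower are blue, with Basp1 at the left edge and Mybph near the bottom.

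The genes with the largest rise came from almost nothing in intact perineurial cells. Basp1, which encodes a membrane protein of growing nerve endings, was at 147 CPM at day 7 with 0 intact counts, at least 35.4-fold higher by a floor of 3 counts in the intact library. Cthrc1 (ENSMUSG00000054196.7; chromosome 15, 39076932 to 39087121), for a secreted protein of injured mesenchyme, was at 292 CPM at day 7 against 2.76 in intact nerve, a ratio of 106 on 2 intact counts (29.2 to 874). Col14a1, for the fibril-associated collagen XIV, was at 302 CPM at day 7 against 2.76 in intact nerve, also on 2 intact counts. Ptn, for pleiotrophin, a growth factor that binds heparin, was at 171 CPM at day 7 against 1.38 in intact nerve, on 1 intact count. Fbn2, for the microfibril protein fibrillin-2, had the firmest base among the 15, at 464 CPM at day 7 against 15.2 in intact nerve, 30.6-fold higher (17.1 to 61.4), and Fndc1 was 38.9-fold higher (16.6 to 119.9). Others among the 15 were Plac8 (201 against 1.38 CPM), Igfbp3, for an insulin-like growth factor binding protein (162 against 2.76), Fscn1, for the actin bundler fascin (119 against 4.14), Cxcl14 (87.7 against 1.38), Fxyd7 (83.4 against 1.38), Igsf10 (61.8 against 0), the immunoproteasome gene Psmb8 (54.1 against 0) and the nuclear receptor gene Nr4a3 (53.3 against 1.38), day 7 first in each pair.

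Of these 15 genes, 13 rested on at most 3 intact counts, 13 also rose in the endoneurial class and 10 in the epineurial class. Their level in the class was 25.4% to 332% of their level over every barcode of the day 7 library, the lowest being Ptn. Myeloid markers, which the class should lack, summed to 40 CPM, 3.94% of their level over every barcode. The shares were higher for Schwann (22.6%), vascular smooth muscle (29.6%) and pericyte (30.9%) markers, so that Ptn lay within the range of these lists. Endothelial markers were at 150%, most of it Cdh5. Carry-over from other cells was not tested.

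The genes with the largest fall were mostly ones with a strong intact level and almost no day 7 counts. Mybph, for a myosin-binding protein, was at 0.533 CPM at day 7 against 82.7 in intact nerve, on 2 day 7 counts. Its exons overlap those of Adora1 on the other strand, which was at 0.533 against 40 CPM, and whether counting used strand is not given in the sources used here. Cldn22 (ENSMUSG00000038064.7; chromosome 8, 47824482 to 47825476), a claudin gene, was at 4.53 CPM (2.64 to 7.26) in the bridge and 371 CPM (328 to 418) in intact nerve, 81.8-fold lower (50.2 to 143). It shares exon sequence with Wwc2 on the other strand, which was at 33.3 against 97.9 CPM. Pcp4, for a calmodulin-binding peptide, was 52.8-fold lower (32.9 to 89.6), Rbp4, for the plasma retinol carrier, 53.7-fold lower (30.4 to 103), and Myoc, for myocilin, 51.2-fold lower (25.8 to 116). Kcnj13, for an inward-rectifier potassium channel, was at 3.47 against 150.3 CPM, Rspo1, for a Wnt-enhancing secreted protein, at 4.53 against 157, Gpm6a at 5.33 against 182, and the monocarboxylate transporter gene Slc16a9 at 7.2 against 222. Others among the 15 were Miat, Chil1, Nebl, Thsd4 and Plac9b, which has a near-identical copy in Plac9a and is uncertain. Of the 15, 6 also fell in the endoneurial class and 9 in the epineurial class.

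Of 22 tight junction genes 12 were under the level for comparison. Of the other 10, 5 were lower, 1 was higher and 4 were within 2-fold, with a median of -1.12 (-0.99 under median-of-ratios scaling, and -1.80 with a mean of at least 50 CPM). The scaffold gene Tjp1, which encodes ZO-1, was at 131 CPM at day 7 against 510.1 in intact nerve, 3.89-fold lower (3.39 to 4.46). F11r, for the adhesion molecule JAM-A, was 5.38-fold lower (4.6 to 6.3), Ocln, for occludin, 5.17-fold lower (3.17 to 8.45), and Jam2 4.34-fold lower (2.31 to 8.09). Each of these folds was larger than that of Cldn1, but only the interval of F11r lay wholly above the interval of Cldn1. In the other direction Jam3 was at 39.7 against 9.65 CPM, a rise under 2-fold after thinning, and the cingulin-like gene Cgnl1 was near level at 199 against 216.

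Adherens junction genes moved less, with 3 of 10 lower, none higher and a median of -0.33. Jup, for plakoglobin, was 3.08-fold lower (2.55 to 3.72), Ctnna1, for alpha-catenin, 2.22-fold lower (1.87 to 2.61), and Pkp4 3.01-fold lower (1.88 to 4.74), while Ctnnb1, for beta-catenin, was at 370.2 against 396 CPM. The fall of Pkp4 was under 2-fold with each cell weighted alike. Of the hemidesmosome and keratin genes 6 of 7 fell and none rose, with a median of -1.37. Itga6, whose product pairs with integrin beta-4, was at 125 CPM at day 7 against 321 in intact nerve, and the tetraspanin gene Cd151 was 4.58-fold lower (3.85 to 5.45). The linker genes Dst and Plec were at 85.8 against 194 CPM and 187 against 295 CPM, the first below 2-fold lower and the second within it.

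The transporters of the barrier were among the lists that fell most. Of 13 compared, 10 fell and 1 rose, with a median of -2.56. Slc16a1, which encodes the lactate carrier MCT1, was at 157 CPM (144 to 169.9) at day 7 and 762 CPM (700.2 to 829) in intact nerve. Abcb1a, for the efflux pump P-glycoprotein, was at 21.3 CPM at day 7 against 216 in intact nerve, 10.2-fold lower (7.71 to 13.5), and Abcg2, a further efflux pump, was at 29.1 against 196 CPM. Efflux pumps and nutrient carriers were thus both lower. The taurine transporter gene Slc6a6 was 8.48-fold lower (6.93 to 10.4), the prostaglandin carrier gene Slco2a1 7.55-fold lower (5.59 to 10.3) and Slc6a12, for a betaine and GABA carrier, 15.5-fold lower (6.35 to 43.2).

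Gap junction genes had 2 of 4 higher and 1 lower, with a median of 0.28. The direction of that median turned with the setting, at 1.27 with no filter on the mean, -0.40 after thinning and -0.81 with a mean of at least 50 CPM. Gjb2, for connexin 26, was at 178 CPM (164 to 192) at day 7 and 12.4 CPM (5.67 to 23.6) in intact nerve, 14.3-fold higher (7.49 to 31.4). Gja1, for connexin 43, was at 83.2 CPM (74.2 to 92.9) and 316 CPM (276 to 359) in the same order, 3.8-fold lower (3.19 to 4.52). Gjc1 was at 33.6 against 12.4 CPM, a rise that was under 2-fold in 5 alternatives, and Gjb5 at 49.8 against 86.9. Gjb2 in the class was at 528% of its level over every day 7 barcode.

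Caveolae, the membrane pits that fill perineurial cells, had 6 of 7 genes lower, none higher and a median of -2.02. The coat genes Cav1 (142 CPM at day 7 against 1176 in intact nerve) and Cav2 (23.7 against 325 CPM) were 8.28-fold and 13.7-fold lower. The cavin genes did not move alike, since Cavin2 was 12.1-fold lower (9.95 to 14.8) and Cavin1 4.07-fold lower (3.68 to 4.5) while Cavin3 was at 383 against 456 CPM. After thinning, the list gave a median of 1 UMI per day 7 cell against 7 in intact cells, and 4 of 241 day 7 cells reached the intact median.

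**Figure D4:**
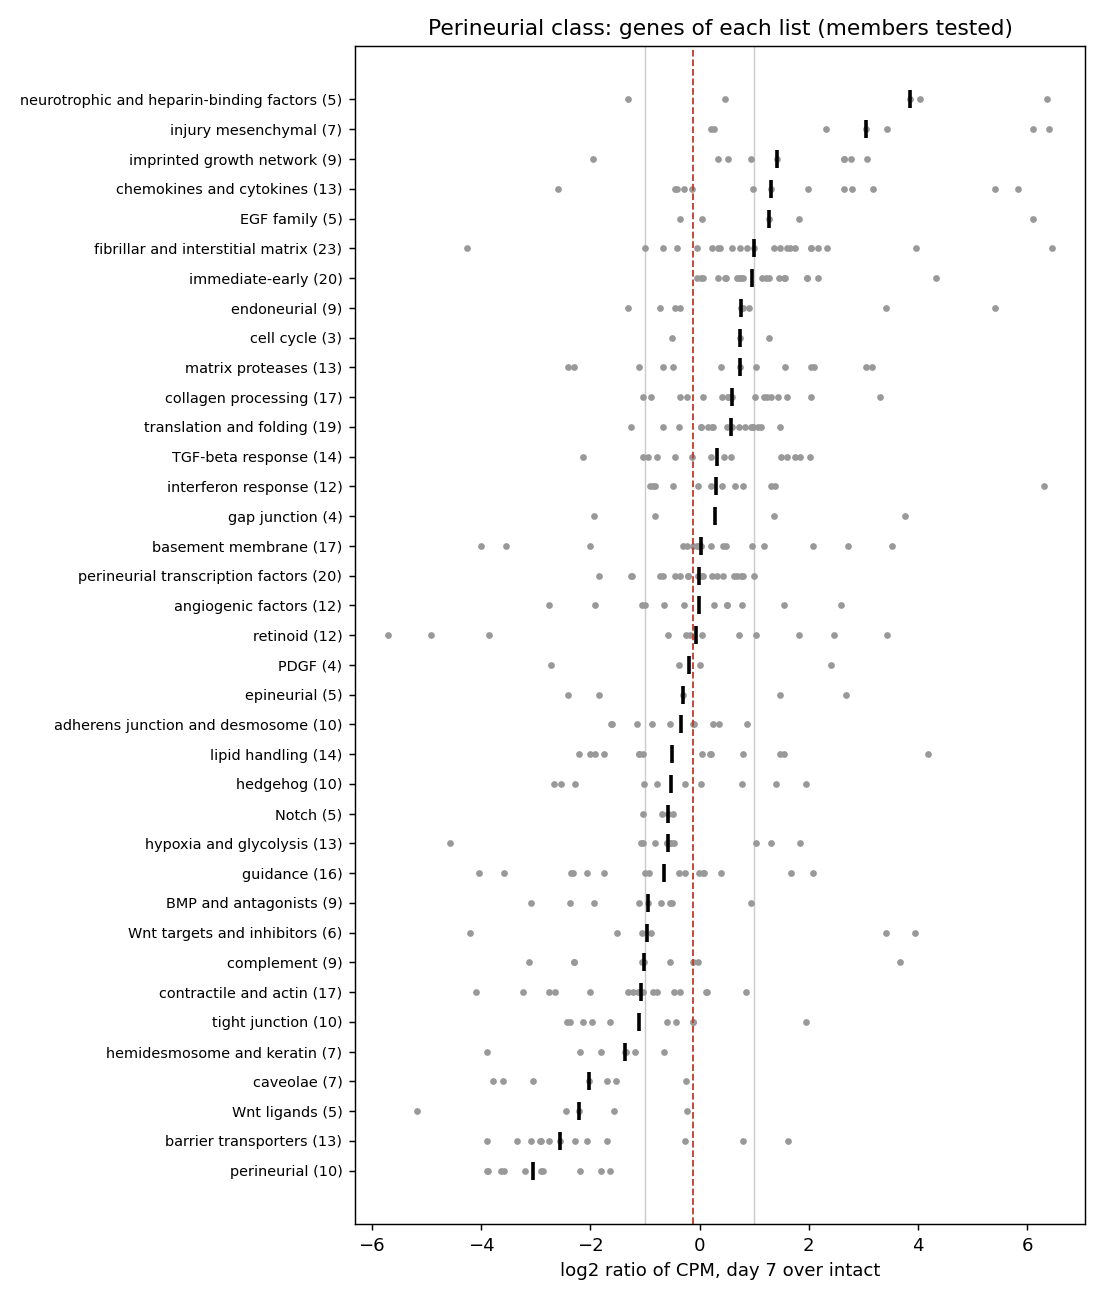
log2 ratio of CPM, day 7 over intact, of each compared gene (grey points) by list in the perineurial class, with the list median (black bar), the median of all genes compared (red dashed line at -0.13) and 2-fold (grey lines). Neurotrophic and injury genes are at the top with medians of 3.85 (5 genes, and 2.05 with no filter on the mean) and 3.04 (2.03 after thinning). Perineurial markers and barrier transporters are at the bottom with -3.05 and -2.56.

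Of 17 basement membrane genes compared, 10 were within 2-fold, 4 were higher and 3 lower, with a list median of 0.03. The share lower is near the 16.6% of all genes compared, beside 9.98% higher. The laminin chain genes diverged. Lamb1 was at 197 CPM (183 to 211) at day 7 and 16.5 CPM (8.55 to 28.9) in intact nerve, 11.9-fold higher (6.77 to 23.1). Lamb2 was at 199.7 against 798 CPM and Lama5 at 3.47 against 41.4, both lower, while Lama4 (211 against 261) and Lamc1 (269 against 277) were within 2-fold. Col18a1 (293 against 44.1 CPM), Col15a1 (199.7 against 46.9) and the perlecan gene Hspg2 (288 against 127) rose, and Npnt, for the integrin ligand nephronectin, was 16.3-fold lower (9.82 to 28). The main network collagens Col4a1 (642 against 655 CPM) and Col4a2 (381 against 374) were near level.

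Genes of interstitial matrix rose in number, with 12 of 23 higher, 1 lower and a median of 1.00, which lay between 0.80 and 1.18 in the alternatives. The fibrillar collagen gene Col1a1 was at 4494 against 1093 CPM, Col1a2 at 2838 against 845, Col3a1 at 2862 against 910.0 and Col5a2 at 395 against 86.9, day 7 first. The proteoglycan gene Vcan was 16.4-fold higher (8.29 to 38.2) and Col11a1 5.22-fold higher (3.01 to 9.9). Fmod, for the collagen-binding fibromodulin, was the gene that fell, 19.3-fold lower (14 to 27.1), and Dcn, for decorin, was at 5731 against 11442 CPM. The summed level of the list was 22082 CPM at day 7 and 17779 CPM in intact nerve.

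The enzymes that process collagen had 8 of 17 higher, 1 lower and a median of 0.60, among them the cross-linking oxidase genes Lox (59.2 against 13.8 CPM) and Loxl1 (47.2 against 4.14), the prolyl hydroxylase gene P3h1 (73 against 23.4) and the chaperone gene Serpinh1 (1043 against 462). The rise of Serpinh1 was just under 2-fold without cells at 5% or more mitochondrial UMIs. Bmp1, for a procollagen proteinase, was at 107 against 219 CPM. Of the proteases and their inhibitors 6 of 13 rose and 3 fell, with a median of 0.74. The membrane collagenase gene Mmp14 was at 393 against 95.1 CPM, the gelatinase gene Mmp2 at 261 against 88.2 and the aggrecanase gene Adamts4 at 42.6 against 4.14, while Adamts5 was at 11.2 against 59.3. The inhibitors split, since Timp1 was 8.49-fold higher (5.19 to 14.9) and Timp3 4.94-fold lower (4.3 to 5.68).

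Genes that mark injured nerve mesenchyme were higher in the class, with 5 of 7 compared above 2-fold and none below, at a median of 3.04. That median was 2.03 after thinning and 3.60 without cells at 5% or more mitochondrial UMIs. Beside Cthrc1 and Timp1, Aldh1a3, which encodes a retinaldehyde dehydrogenase, was at 602 CPM (578 to 628) at day 7 and 55.2 CPM (39.4 to 75.1) in intact nerve, 10.9-fold higher (8.0 to 15.3). Tnc, for tenascin-C, was at 23.7 against 4.14 CPM. Spp1 (436 against 361 CPM) and Postn (517 against 447), for osteopontin and periostin, were within 2-fold. The 8 genes together gave a median of 4 UMIs per thinned cell at day 7 against 1 in intact nerve. The thinned medians were 6 at day 7 and 0 in intact nerve in endoneurial cells, and 8 and 0 in the same order in epineurial cells. In sum the list stood in day 7 perineurial cells at 39.2% of its level over every day 7 barcode.

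Areg (ENSMUSG00000029378.5, chromosome 5, 91139599 to 91148432), for amphiregulin, a ligand of the EGF receptor, was at 47.4 CPM (40.7 to 55) at day 7 with 0 intact counts. It was 11.5-fold higher against the floor of 3 counts, and its exact 95% interval began at 9.23-fold. It was spread unevenly, since the 10% of day 7 cells richest in it held 91.6% of its UMIs, and the endoneurial class of the same library had it at 122 CPM. Hbegf, for a further ligand of that receptor, was at 45.8 against 12.4 CPM and rose, and the receptor gene Egfr was at 73 against 70.3. Of 5 EGF family genes compared 3 rose and none fell, with a median of 1.28, which was 0.04 over genes with a mean of at least 50 CPM.

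Of 12 genes of retinoid handling 4 were higher and 3 lower, at a median of -0.06, beside 9.98% and 16.6% of all genes compared. The synthetic enzyme genes Aldh1a3 and Rdh10 (126 against 22.1 CPM) rose, as did Crabp2, for a retinoic acid binding protein (376 against 106). The retinoic acid hydroxylase gene Cyp26b1 was 34.5-fold lower (10.2 to 181) on 3 day 7 counts, and the dehydrogenase gene Aldh1a1 14.9-fold lower (6.79 to 36.2). The imprinted growth genes H19 (743 against 109 CPM), Mest (143 against 16.5), Meg3 (184 against 29), Grb10 (175 against 64.8) and Peg10 (30.1 against 4.14) rose, 5 of 9 at a median of 1.42, and Cdkn1c, for a cell cycle inhibitor, was at 185 against 718. The H19 log2 ratio was 2.76, and 3.77 without the 10% of cells with the most UMIs.

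The hedgehog pathway, which patterns the sheath, had lower levels of 3 co-receptor genes. Boc was 4.84-fold lower (3.14 to 7.47), Gas1 5.82-fold lower (3.87 to 8.77) and Cdon 6.37-fold lower (2.87 to 14.4), all 3 encoding proteins that help ligand bind. The receptor gene Ptch1 was at 542 against 927 CPM and the transducer gene Smo at 50.6 against 60.7, within 2-fold. Gli1, a target of the pathway, was at 76.5 against 154 CPM, and Gli3 at 18.4 against 4.14, a rise under 2-fold with 5 counts added. Hhip also rose, with a log2 ratio of 1.40, which was 0.71 with 5 counts added. In all 4 of 10 fell and 2 rose, with a median of -0.52. Dhh, the ligand gene, was at 1.07 against 0 CPM and under the level for comparison.

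Wnt ligands fell in 4 of 5 genes compared and none rose, with a median of -2.20. The median was -1.57 with no filter on the mean and -1.50 without cells holding 5 or more Acta2 UMIs. Wnt6 was at 86.9 CPM (77.7 to 96.9) at day 7 and 470.2 CPM (422 to 523) in intact nerve, 5.41-fold lower (4.63 to 6.32), Wnt10a was 4.6-fold lower (2.93 to 7.2), and Wnt2b was at 0.533 against 23.4 CPM on 2 day 7 counts. Wnt9a was at 20.5 against 60.7 CPM, a fall under 2-fold in 2 alternatives. Among Wnt targets and inhibitors 2 of 6 rose and 3 fell, with a median of -0.97, and the secreted inhibitors did not move together. Sfrp5 (ENSMUSG00000018822.7; chromosome 19, 42197971 to 42202252) was at 300.1 CPM (283 to 318) in the bridge and 5490.3 CPM (5321 to 5664) in intact nerve, 18.3-fold lower (17.1 to 19.6), while Sfrp4 was at 116 against 6.89 CPM and Wif1 at 36.5 against 2.76, on 2 intact counts. The 10% of day 7 cells richest in Sfrp5 held 75% of its UMIs.

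Pdgfrb, the gene whose promoter drives the Cre, was at 47.7 CPM (41 to 55.2) at day 7 and 314 CPM (275 to 358) in intact nerve, 6.59-fold lower (5.39 to 8.06). Pdgfra was at 152 against 197 CPM and Pdgfrl at 128 against 23.4, the 1 of 4 PDGF genes that rose beside the 1 that fell, at a median of -0.19. BMP genes and their antagonists had 4 of 9 lower, none higher and a median of -0.95, with Bmp6 8.51-fold lower (5.34 to 13.8) and the follistatin-like gene Fstl1 at 1191 against 618 CPM. Of 5 Notch genes compared 1 fell, Notch2 at 44 against 89.6 CPM, a call that was lost in 4 alternatives, and the target gene Hes1 was at 352 against 524. The Notch median was -0.58, and 1 of 5 lower is near the 16.6% of all genes compared. In the TGF-beta list 5 of 14 rose and 2 fell, with a median of 0.33, beside 9.98% and 16.6% of all genes compared. Tgfb1 was at 41.6 against 9.65 CPM and Inhba, for an activin subunit, at 61.6 against 16.5, whereas the target genes Ctgf (42.9 against 188) and Smad7 (35.2 against 71.7) were lower.

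Of the 5 compared genes for growth factors that act on neurons and their receptors, 3 were higher and 1 lower. Igf1, for insulin-like growth factor 1, was at 666 CPM (641 to 693) at day 7 and 45.5 CPM (31.3 to 63.9) in intact nerve, 14.6-fold higher (10.4 to 21.3). Mdk, for midkine, was at 1119 CPM (1085 to 1153) and 67.6 CPM (50 to 89.3) in the same order, 16.6-fold higher (12.5 to 22.4). Ptn was the other that rose. The list median was 3.85, and 2.05 with no filter on the mean. The GDNF co-receptor gene Gfra1 was at 16.8 against 41.4 CPM. The list of 14 had 9 members under the level for comparison, among them Bdnf and Gdnf. Over every day 7 barcode the class stood at 156% for Mdk and 64.1% for Igf1.

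Guidance genes had 6 of 16 lower, 2 higher and a median of -0.65. Ntn4, for netrin-4, was 16.6-fold lower (11.7 to 24), Sema3b 12.2-fold lower (7.06 to 21.7), Ntn1 5.14-fold lower (4.33 to 6.09) and Sema3d 4.98-fold lower (4.11 to 6.05), while Slit3 was at 37.6 against 8.27 CPM, a rise under 2-fold after thinning. These genes encode secreted cues, several of which guide axons. Among angiogenic factors 2 of 12 rose and 3 fell at a median of -0.02, beside 9.98% and 16.6% of all genes compared. Nothing is read from these counts. Angptl4 was at 37.3 against 5.52 CPM, Pgf, for placental growth factor, at 9.6 against 64.8, and Vegfa at 37.9 against 12.4. The Vegfa rise was under 2-fold without cells at 5% or more mitochondrial UMIs.

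Chemokine and cytokine genes had 7 of 13 higher and 1 lower. The monocyte attractant genes Ccl2 (378 CPM (359 to 398) at day 7, 53.8 CPM (38.2 to 73.5) in intact nerve) and Ccl7 were 7.03-fold and 9.29-fold higher. The neutrophil attractant gene Cxcl1 was at 467 against 117 CPM and Cxcl5 at 38.9 against 0, at least 9.41-fold higher. Il34, for a ligand of the macrophage receptor CSF1R, was at 8.26 against 49.6 CPM and fell. The list median was 1.30, and 0.58 without cells at 5% or more mitochondrial UMIs, which left 231 day 7 and 64 intact cells.

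Complement genes went the other way, with 5 of 9 lower, 1 higher and a median of -1.01, which was under 2-fold in 9 alternatives. C2 was 8.76-fold lower (7.36 to 10.4), the regulator gene Cd55 4.91-fold lower (3.07 to 7.86), and Serping1, for the C1 inhibitor, was at 899 against 1809 CPM. C3 was at 43.7 against 2.76 CPM, on 2 intact counts. Of the interferon response genes 3 of 12 rose and none fell at a median of 0.31, with Irf1 at 186 against 74.5 CPM and Isg15 at 80.8 against 30.3, both under 2-fold without cells at 5% or more mitochondrial UMIs.

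Immediate-early genes, which encode fast-acting transcription factors and their regulators, had 10 of 20 higher and none lower, with a median of 0.97. Nr4a2 was at 262 CPM (246 to 279) at day 7 and 12.4 CPM (5.67 to 23.6) in intact nerve, 21.1-fold higher (11.1 to 46.3). Egr2 (64.5 against 13.8 CPM), Egr3 (94.4 against 23.4), Fosl2 (192 against 48.3), Junb (1929.9 against 702) and Socs3 (558 against 230.3) also rose, while Fos (1947 against 1149), Jun (881 against 631) and Egr1 (625 against 649) were within 2-fold. In the endoneurial and epineurial classes the same list had medians of -0.19 and -0.04. Per thinned cell the median at day 7 was 23 UMIs in perineurial, 27 in endoneurial and 37 in epineurial cells. In intact nerve it was 5, 30 and 28.5 in the same order. The intact perineurial cells thus stood apart, and the day 7 perineurial cells were not above the other day 7 classes. Intact perineurial cells varied widely, holding 0 to 116 of these UMIs after thinning with quartiles of 2 and 11, against quartiles of 13 and 32 in day 7 cells. Without cells at 5% or more mitochondrial UMIs the median was 0.48, and Junb and Socs3 were within 2-fold. The part of cell quality in the difference was not tested.

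Of 20 compared genes in a list of transcription factors of nerve mesenchyme, 3 were lower, none was higher and 17 were within 2-fold, with a median of 0.00. The list, labelled perineurial where the lists are drawn, is not particular to the sheath. Sox9, Etv1, Osr2 and Meox1 in it are also among the endoneurial markers used here. The share lower is near the 16.6% of all genes compared and none were higher beside 9.98% of all, so nothing is read from the counts. Nr2f2 was at 436 CPM (415 to 457) at day 7 and 1555 CPM (1466 to 1649) in intact nerve, 3.57-fold lower (3.31 to 3.85), Klf5 was 2.35-fold lower (2.08 to 2.64) and Foxc1 2.39-fold lower (1.88 to 3.03). Foxd1 (287 against 273 CPM), Ebf2 (221 against 218) and Sox9 (143 against 183) stood near their intact level. The Foxc1 fall was just under 2-fold after thinning.

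In metabolism, Ndrg1, a stress- and hypoxia-responsive gene, was at 45.3 CPM (38.8 to 52.7) at day 7 and 1078 CPM (1004 to 1156) in intact nerve, 23.8-fold lower (20.1 to 28.3). The glycolytic genes Hk2 (423 against 117 CPM) and Ldha (331 against 134) rose and Tpi1 (172 against 353) fell, so that 3 of 13 hypoxia and glycolysis genes were higher and 3 lower, at a median of -0.58. Lipid genes had 7 of 14 lower, 3 higher and a median of -0.50, which was 0.12 both with no filter on the mean and with a mean of at least 50 CPM. Apoe was 4.64-fold lower (4.23 to 5.09) and the sterol synthesis gene Hmgcs1 3.36-fold lower (2.53 to 4.43), whereas Abca1, for a cholesterol exporter, was at 82.1 against 27.6 CPM and Fabp5 at 37.3 against 1.38 on 1 intact count. Genes of translation and folding had 3 of 19 higher and 1 lower, at a median of 0.58, beside 9.98% and 16.6% of all genes compared. Npm1 (926 against 335 CPM) led those that rose, and the stress gene Ddit3 (27.7 against 66.2) was the 1 that fell. Of 22 cell cycle genes, 19 were under the level for comparison and Mcm6 was the 1 that rose, at 21.6 against 8.27 CPM, a rise under 2-fold in 2 alternatives. The annotation puts dividing cells in a class of their own, MES_DIV, with 206 day 7 and 7 intact cells. Low cell cycle levels in the perineurial class therefore do not show how often perineurial cells divided.

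Contractile and actin genes had 10 of 17 lower and none higher. Of 8 markers of vascular smooth muscle only 2 were compared, Tagln and Acta2, which are in both lists. Both fell, and the smooth muscle median was -2.99, and -0.64 with no filter on the mean. Gsn, for gelsolin, was at 641 CPM (615 to 667) at day 7 and 3996 CPM (3852 to 4144) in intact nerve, 6.24-fold lower (5.91 to 6.58). Tagln was 9.36-fold lower (8.44 to 10.4) and Acta2 6.79-fold lower (5.83 to 7.92), while Actb was at 3039 against 3891 CPM and Actg1 at 1813 against 1660.0. The 8 smooth muscle markers summed to 240.2 CPM at day 7 and 1954 in intact nerve, with Pln at 0 in both and Cnn1, Actg2, Des and Lmod1 at 0 in intact nerve, and 0 day 7 cells and 4 intact cells had 1% or more of their UMIs from them. Without cells holding 5 or more Acta2 UMIs, which left 229 and 96 cells, the contractile median was -0.62 in place of -1.08, the Acta2 log2 ratio was -1.61 in place of -2.76, and the Tagln log2 ratio was -1.72 in place of -3.23.

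Immune, erythroid and adipocyte markers left few transcripts in the class, and markers of some other cell types left more. Endothelial markers summed to 245 CPM at day 7 and 358 in intact nerve, most of it Cdh5 (193 against 352 CPM), with Emcn at 38.4 against 5.52, Pecam1 at 1.87 against 0 and Flt1 at 0 in both. Schwann cell markers summed to 152 and 371 CPM, mainly Pmp22 and S100b, with Sox10 at 0.533 against 0. Pericyte markers summed to 151 and 219 CPM, mostly Cspg4, myeloid markers to 40 and 22.1, and erythroid markers to 0.267 and 15.2. Skeletal muscle markers summed to 13.3 and 159 CPM, with Tnnt3 at 6.4 against 156. Lymphocyte, neutrophil and mast cell, and adipocyte markers were each under 3 CPM in both libraries. Tenocyte and chondrocyte markers summed to 851 and 1153 CPM, mainly Thbs4 (824 against 902 CPM), with Fmod at 12.8 against 247. Beside every barcode of the intact library, the intact sums stood at 986% for skeletal muscle, 291% for tenocyte and chondrocyte and 123% for endothelial markers. They stood at 103% for Schwann, 52.5% for myeloid, 50.4% for pericyte and 0.865% for erythroid markers. The part of other cell types in the results was not tested. Endoneurial markers summed to 5292 CPM at day 7 and 5066 in intact nerve, with 2 of 9 higher and 1 lower in the class. Epineurial markers summed to 558 and 294 CPM in the same order, with 2 of 5 higher and 2 lower.

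Set beside the other classes of both libraries, the perineurial markers had medians of opposite sign in perineurial and endoneurial cells, where most of them had few intact counts. The 10 markers had a median of -3.05 in the perineurial class, 2.26 in the endoneurial class, where 7 rose and 1 fell, and -0.60 in the epineurial class, where 2 rose and 4 fell. At day 7 the markers summed to 854 CPM in perineurial, 181 CPM in endoneurial and 35.5 CPM in epineurial cells, against 174 CPM over every barcode of the library. Barrier transporters had medians of -2.56, 0.75 and 0.28 in the same order of classes, and tight junction genes -1.12, 0.47 and -0.29. Caveolae genes had a median below that of all genes in each class, at -2.02, -1.04 and -0.30. The injury list was above it in each, at 3.04, 5.02 and 3.88. Of 3279 genes compared with at least 50 CPM in 1 of the perineurial libraries, 70 had a fitted ratio past 2-fold lower in the perineurial class and past 2-fold higher in the endoneurial class, and 4 the reverse. Of the 70, 7 had 0 counts in a library of endoneurial cells, and 68 of the 70 were left when 0 counts were set to 3. Against the epineurial class the counts were 29, with 26 left in the same way, and 13. None of these differences between classes was tested.

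**Figure D5:**
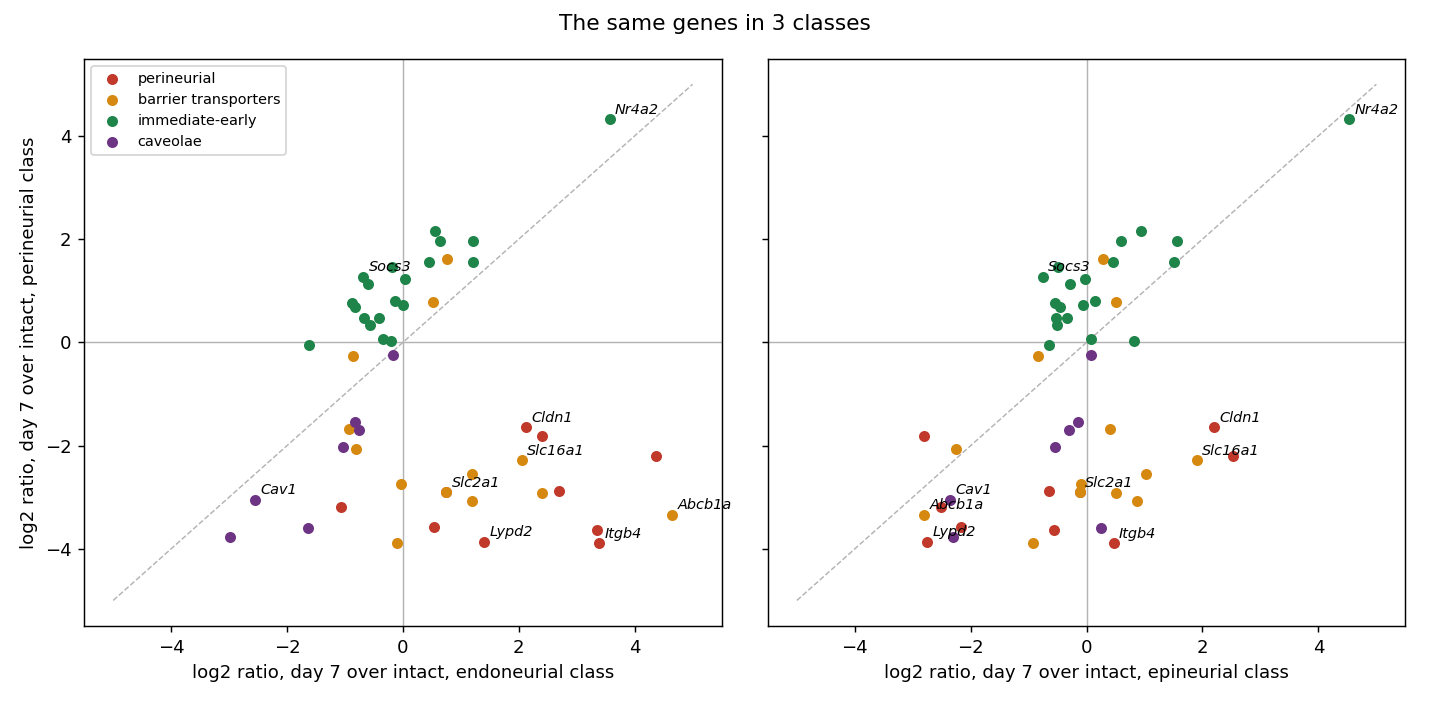
log2 ratio of CPM, day 7 over intact, in the perineurial class (y axis) against the same gene in the endoneurial (left) and epineurial (right) class, for 4 gene lists, with the line of equal ratio. Perineurial markers such as Itgb4 lie below 0 on the y axis, with a median of -3.05, and mostly right of 0 for endoneurial cells, with a median of 2.26.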

How the data were processed

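Single-cell RNA sequencing was deposited as 1 feature-by-barcode matrix per library, with raw counts of UMIs per gene made with Cell Ranger 6.1.2 per the file headers. The submitters' processing notes name Cell Ranger 6.1.2 and 3.0.2, Seurat 4.0.1, mm10 and GRCm38, with no role for each. Cell classes are those of the authors' deposited cell annotation. The filters behind it, the treatment of doublets and the strand setting of counting are not given in the sources used here, and no doublet caller was run. From the deposited counts, UMIs of the MES_PERI cells of a library were summed and divided by their total to give CPM. Genes with a mean of 10 CPM over both libraries were compared, and 0.5 counts were added for log2 ratios. Levels carry exact Poisson 95% intervals and folds exact conditional binomial 95% intervals, which cover counting error only. With 0 counts in a library the fold is given against a floor of 3 counts in it, 0.80 CPM at day 7 and 4.14 CPM in intact nerve. The floor is a setting, and the exact 95% intervals of Basp1, Areg and Cxcl5 began below the folds it gave. There was 1 library per group, so no test was run.

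Genes were named by a rule that took the 15 largest ratios each way among genes with at least 50 CPM and a UMI in 10% of cells of the higher library. The rule also took up to 4 members of each process list and the injury list by absolute ratio with at least 20 CPM, the perineurial markers, Pdgfra and Pdgfrb, and the 10 largest opposite changes against another class. It gave 168 genes, and 57 further list members were named after their values were seen. Some genes are not reported here. There were 15 marker lists and 33 process lists, and 656 of 659 symbols were matched. The cell class, its members and all lists were chosen with earlier results of these data known. There were 12 alternatives, 2 of them added after seeing the data. The log2 ratios were checked on simulated counts. Promoter sequences are RefSeq's (GRCm38.p6) and gene positions are from GENCODE M21. Python 3.11.15, NumPy 2.4.6, SciPy 1.17.1, pandas 2.3.3 and matplotlib 3.10.9 were used.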

Additional observations from a re-analysis of the deposited data

Results flagged for a closer look

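For 10 genes the fitted log2 ratios of the perineurial class and of another class of the same libraries had opposite signs, and these differences were not tested, since each group was 1 library. Against the endoneurial class, the log2 ratio of day 7 over intact was lower in the perineurial class by the following differences, perineurial minus endoneurial. The calmodulin-binding peptide gene Pcp4 had a difference of -9.04, the integrin gene Itga6 -8.91, the efflux pump gene Abcb1a -7.99, the integrin gene Itgb4 -7.27 and Stmn2, for a microtubule regulator of neurons, -7.11. Itga6 stood at 26.8 CPM in day 7 endoneurial cells with 0 intact counts, and at 125 CPM at day 7 against 321 CPM in intact perineurial cells. Endoneurial intact counts were also 0 for Pcp4, Abcb1a and Stmn2, so those 4 differences depend on the added count, in direction as well as in size for genes near the limit. Pcp4 was at 1.34 CPM in day 7 endoneurial cells, and the floor for 0 intact counts there was 0.865 CPM, so a rise past 2-fold is not shown. Itgb4 was at 13.4 CPM at day 7 and 1.15 CPM in intact nerve in the endoneurial class.

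Against the epineurial class, perineurial minus epineurial, the decoy receptor gene Tnfrsf11b had a difference of -9.20, the creatine synthesis gene Gatm -9.02, the potassium channel gene Kcnj2 -8.84, the chitinase-like gene Chil1 -7.48 and Palmd, for palmdelphin, -7.12. Tnfrsf11b was at 2.67 CPM at day 7 and 56.5 CPM in intact nerve in perineurial cells, and at 25.4 and 0.760 CPM in epineurial cells. The epineurial intact counts were 0 for Gatm, Kcnj2, Chil1 and Palmd, so these 4 differences also depend on the added count. In epineurial day 7 cells these 4 genes were between 0.369 and 5.46 CPM. The lowest was Chil1, at 0.369 CPM, under the floor of 0.760 CPM for 0 counts in intact epineurial cells, so no rise is shown for it.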

How the results depend on the processing

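The 823 genes that rose and 1369 that fell became 328 and 403 of 2983 with a mean of at least 50 CPM, 2065 and 2477 of 13198 with no filter on the mean, and 497 and 1704 with 5 counts added. In the other settings both counts were within 1.5 times, and scaling by the median of ratios, which shifts every log2 ratio by 0.13, gave 1002 and 1156. Of the 2192 calls, 731 were kept in their direction with a mean of at least 50 CPM, where most genes were no longer compared, 1598 after thinning to 2000 UMIs, and 1749 to 2192 in the other alternatives. At most 35 changed sign, after thinning. Of the 225 genes followed singly 188 were past 2-fold; 159 stayed so in each of the 10 alternatives run for single genes and 29 did not in at least 1. The list medians moved by at most 0.5 in 478 of 526 comparisons. The skeletal muscle list had a median of 0.52 with no filter on the mean and -4.58 with it, when it held only Tnnt3. Medians of 10 lists came under 2-fold in at least 1 alternative. Leaving out cells with 5 or more Acta2 UMIs and cells at 5% or more mitochondrial UMIs were chosen after seeing the data.

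The class held 3751538 UMIs at day 7 and 725278 in intact nerve, so 0 counts in intact nerve allow up to 4.14 CPM and genes near that level had wide intervals. The intact cells were also fewer and had a higher share of mitochondrial UMIs. No paired analysis was possible because each group was 1 library, and no replicate was left out for the same reason.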

Other observations

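The day 21 bridge library held 2069 cells of the same annotated class, and its perineurial transcripts lay between those of the other libraries in sum. The 10 markers summed to 6628 CPM in intact nerve, 854 CPM at day 7 and 3005 CPM at day 21, with thinned medians of 13, 1 and 5 UMIs per cell in the same order of groups. Slc2a1 was at 818, 109 and 337 CPM, Cldn1 at 878, 281 and 1090.3 CPM, and Itgb4 at 1513, 102 and 422 CPM. Caveolae genes had thinned medians of 7, 1 and 7 UMIs per cell, barrier transporters 6, 1 and 2, injury genes 1, 4 and 1, and immediate-early genes 5, 23 and 34. Areg was at 0, 47.4 and 2.47 CPM, Cthrc1 at 2.76, 292 and 3.44, and Sfrp5 at 5490.3, 300.1 and 796. With 1 library at each time, no difference between them was tested.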
